A study of Drosophila melanogaster with 12 samples.

Results

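SvbACT is a constitutive activator form of Shavenbaby (Svb), a zinc-finger transcription factor encoded by the gene ovo. RNA from enterocytes of Drosophila melanogaster females that expressed it was compared with RNA from control enterocytes, across every gene with enough counts to test. Members were the libraries whose labels give the SvbACT or the control genotype, 3 of each, which makes 6 of the 12 libraries in the series. All flies carried MyoIA-Gal4, a driver of the enterocyte-expressed MyoIA gene, with UAS-GFP and tubGal80TS, a temperature-sensitive inhibitor of Gal4. Control flies came from a cross to the wild-type stock Canton-S and had no further transgene, whereas SvbACT flies came from a cross to UAS-SvbACT::GFP. Virgin females were kept at room temperature for 3 days, induced at 29 °C for 6 days and dissected at 9 days of age. Midgut regions R3 to R5 of pooled females were dissociated, and the sorted cells are called early enterocytes in the labels. The other genotypes are used only for direct contrasts with SvbACT. SvbREP flies carried UAS-Svb3Kmut::GFP, a repressor form, and the remaining 3 libraries are labelled svb RNAi. The stock crossed to the driver line also differed between control and SvbACT, and its effect cannot be told apart from that of the transgene.

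Svb is made as a long repressor that is converted to a shorter activator when small peptides trigger its partial degradation by the proteasome. In the embryonic epidermis the activator turns on genes for cuticle and actin structures, and in the adult midgut Svb acts in the stem cell lineage. That lineage consists of stem cells, which divide and express the Notch ligand Delta, absorptive enterocytes, which secrete enzymes and take up nutrients, and enteroendocrine cells, which release peptide hormones from dense-core vesicles.

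The 6 libraries held 3909657 to 8881488 counts, and a count of 3, the floor below which a transcript can be missed by sampling, equalled 0.340 to 0.780 CPM (counts scaled to library size by TMM). Transcripts of brush border and enterocyte genes were abundant in all 6 libraries, as the summed level of 11 members was 9544 to 11733 CPM in control and 10439 to 12169 CPM in SvbACT. Most of this sum came from the cytoskeletal genes kst, alpha-Spec, Fim and Moe, so it does not measure the share of enterocytes in the sort. Marker genes of other midgut cells were present too, among them the hormone AstC at 47.4 to 953 CPM and the muscle myosin gene Mhc at 10.6 to 269 CPM. Control library 1 stood apart from the other control libraries in hormone genes, with 1.88 CPM of Tk against 113 and 55.4, and in muscle genes, with 46.2 CPM of Mhc against 263 and 269. Libraries were numbered 1 to 3 in each genotype, and on the second principal component of the 6 libraries, which held 23.3% of the variance, both libraries numbered 1 lay at 28.9 and 34.2 and the others at -23.1 to -4.45. The first component, with 42.6%, placed the control libraries at -31.4 to -27.9 and the SvbACT libraries at 13.7 to 40.1.

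Of 8296 genes tested, 128 differed between SvbACT and control at an edgeR quasi-likelihood (QL) adjusted p under 0.05, which is 1.54% of the genes tested. The 57 higher genes are 0.687% and the 71 lower genes are 0.856%, the shares to set beside counts of called members in the gene groups below. When the library number was fitted as a block, 320 genes were called (3.86%), 141 higher (1.7%) and 179 lower (2.16%), and these included all 128. Members said below to pass with the block are to be set beside these larger shares. In each of the 128 genes the 3 SvbACT libraries lay on 1 side of the 3 control libraries. Lack of overlap, where it is given below for a called gene, therefore adds nothing to its call. Over all tested genes the SvbACT libraries lay above every control library in 9.23% and below every control library in 10.6%. The change exceeded 2-fold in 109 called genes and 4-fold in 63, while the median log2 fold change of all tested genes was 0.02. Without the block, the number of calls changed with the library left out: it was 22 without control library 2, 41 without control library 3, 22 without SvbACT library 2 and 29 without SvbACT library 3. It was 103 without control library 1 and 113 without SvbACT library 1. Such fits also use fewer libraries, and the part of this in the lost calls was not tested. The fit with the block was not repeated without single libraries, so how far its 320 calls change without them was not tested. Called in every one of these fits were ovo, mfr, blanks, Ugt49B1, AstA-R1, DIP-alpha and stg among the higher genes, and CG6912, Syt4, CG3984, asRNA:CR45600, CG7120, Kul, Ncc69, dpr10, Nep3 and Meltrin among the lower ones, to name those described here. The authors' deposited table calls 280 genes for this comparison, and these include all 128.

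**Figure D1:**
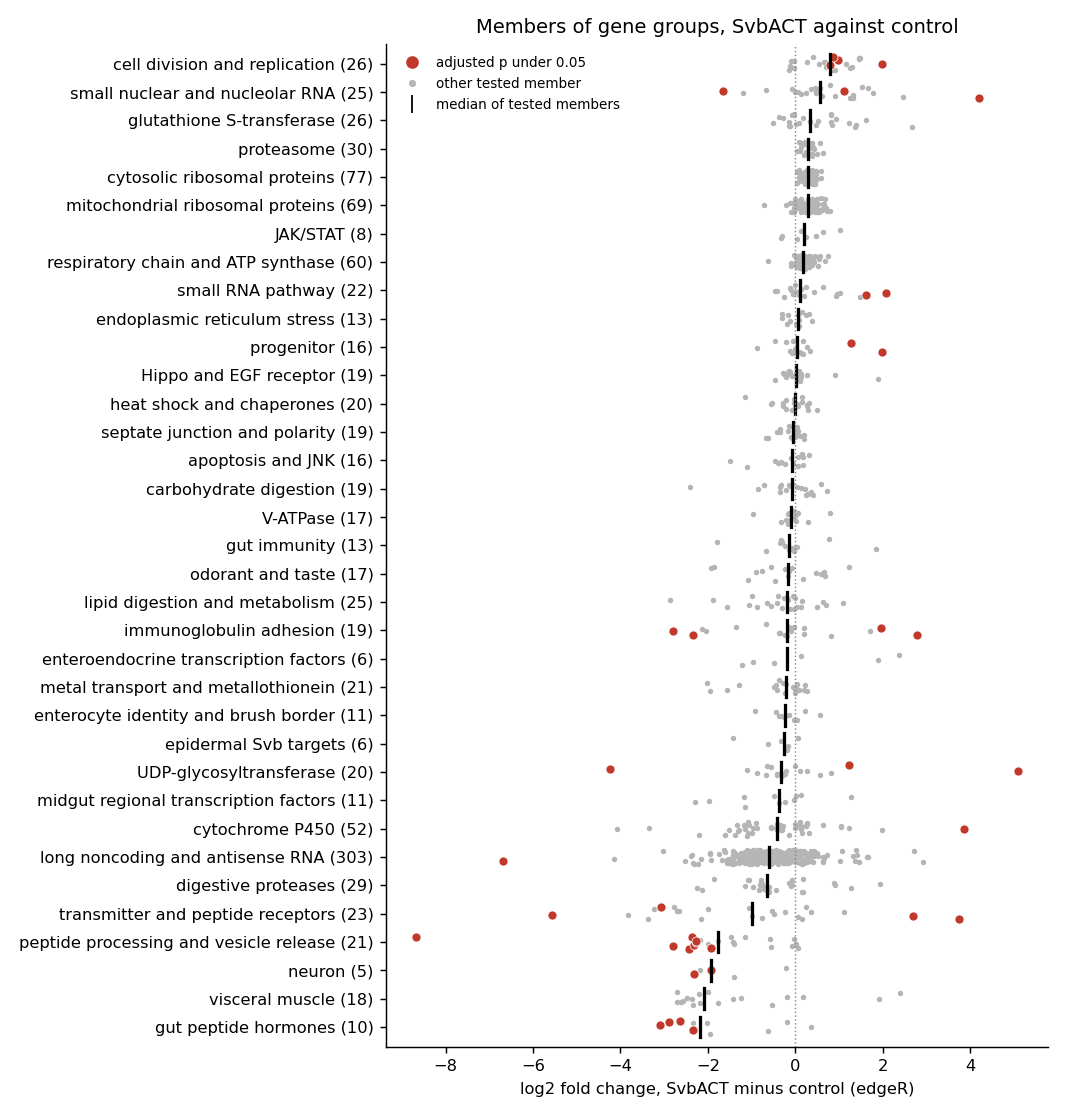
Log2 fold change of every tested member of gene groups with at least 5 tested members, SvbACT minus control, with the number of tested members in brackets. Red points passed the edgeR test at an adjusted p under 0.05, grey points did not, and the black bar is the group median, which lay lowest in gut peptide hormones (-2.19) and highest in cell division and replication (0.80).

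Transcripts of ovo stood at 11.9, 2.10 and 1.30 CPM in control libraries 1, 2 and 3 and at 237, 183 and 105 CPM in the SvbACT libraries. The groups did not overlap, which gave a log2 fold change of 5.04 with an SE of 0.69 (adjusted p 0.00301 by edgeR's QL test). The transgene carries ovo coding sequence, so these counts hold both endogenous and transgenic transcripts, which the table does not separate. Exons of ovo overlap those of lncRNA:CR44833 on the opposite strand.

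Among peptide hormones of enteroendocrine cells, AstA, AstC, CCHa1 and CCHa2 fell in SvbACT. Of 10 hormone genes tested, 4 fell, beside 0.856% of all genes, 0 rose and 6 did not pass the test. Their median log2 fold change was -2.19, beside 0.02 for all genes. AstA, which encodes allatostatin A, measured 46.5, 326 and 124 CPM in control and 25.4, 17.0 and 16.0 CPM in SvbACT. Every SvbACT library lay below every control library, with control library 1 the nearest to them. Its log2 fold change was -3.09 (SE 0.61, adjusted p 0.0302). AstC, the gene of the somatostatin-like allatostatin C, was the most abundant hormone transcript, at 292, 953 and 699 CPM in control against 176, 88.0 and 47.4 CPM. SvbACT library 1 was the highest of its group and again lay below the lowest control library, and the log2 fold change was -2.64 (SE 0.59, adjusted p 0.0449). CCHa1, a peptide released by gut endocrine cells, read 36.9, 157 and 72.2 CPM in control and 22.0, 17.6 and 12.3 CPM in SvbACT (-2.35, SE 0.46, adjusted p 0.0302). CCHa2, a nutrient-responsive peptide, read 198, 414 and 313 CPM against 64.7, 30.9 and 30.0 CPM (-2.88, SE 0.48, adjusted p 0.0132). Neither gene overlapped between groups.

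The other hormones were less uniform. Mip was at 23.6, 18.5 and 32.5 CPM in control and at 5.17, 7.36 and 1.70 CPM in SvbACT, without overlap, yet passed only with the replicate block (adjusted p 0.0993 without it and 0.0443 with it). Tk, the tachykinin gene, read 1.88, 113 and 55.4 CPM in control and 11.8, 17.3 and 12.3 CPM in SvbACT. The groups of Tk overlapped because control library 1 was the lowest of all 6. In NPF and Dh31 control library 1 was the lowest of all as well, at 0.188 and 0.377 CPM, against 7.28 to 27.1 CPM in the other control libraries. ITP, an ion transport peptide gene, was not called (213 ± 33.0 CPM in control and 274 ± 16.5 in SvbACT, SD, n = 3, adjusted p 0.318). Summed over the list, hormone transcripts came to 781, 2286 and 1563 CPM in control and 589, 485 and 420 CPM in SvbACT. The count of 4 lower hormones became 0 without control library 2, SvbACT library 2 or SvbACT library 3, 1 without control library 3 and 3 without SvbACT library 1, while the median stayed between -2.58 and -1.34. In these bulk samples, fewer enteroendocrine cells in the sort and less hormone RNA per cell cannot be told apart.

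Part of the machinery that processes and releases peptides fell as well. Of 21 such genes 8 fell, beside 0.856% of all genes, 0 rose and 13 did not pass. The median was -1.77, and with the replicate block 12 fell, beside 2.16% of all genes. The prohormone convertase gene amon read 25.8, 77.6 and 68.6 CPM in control and 10.0, 10.1 and 4.04 CPM in SvbACT (log2 change -2.80, SE 0.47, adjusted p 0.014). Pal2, an amidating enzyme that finishes peptide hormones, read 17.7, 76.4 and 54.8 CPM against 10.6, 9.74 and 7.02 CPM (-2.43, SE 0.49, adjusted p 0.0302). IA-2, a dense-core vesicle membrane protein, was the most abundant of the genes that fell, at 279, 1231 and 957 CPM against 174, 169 and 136 CPM (-2.36, SE 0.49, adjusted p 0.0334). In these 3 genes control library 1 was the lowest control library and still lay above all SvbACT libraries.

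Syt4, a synaptotagmin of secretory vesicles, was nearly absent. Control libraries held 29.8, 32.7 and 23.4 CPM, and the SvbACT libraries held 0, 1 and 0 counts. The ratio of control to SvbACT was 591, with a 95% counting interval from 106 to 23405 that covers counting error only (adjusted p 0.000635). Unlike the hormones, Syt4 was similar in all control libraries, and it was also at 0 to 0.267 CPM in the SvbREP libraries and at 0 in the libraries labelled svb RNAi. Syt1, the calcium sensor of synaptic vesicle fusion, read 14.5, 31.7 and 27.5 CPM in control and 4.43, 6.23 and 3.83 CPM in SvbACT (-2.33, SE 0.38, adjusted p 0.0127).

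Active-zone genes belonged to the same group. Rim, an active-zone scaffold, had a log2 change of -2.28 (SE 0.51, adjusted p 0.045), cac, the pore subunit of a voltage-gated calcium channel, of -2.26 (SE 0.52, adjusted p 0.0488) and brp, a scaffold that clusters such channels, of -1.94 (SE 0.41, adjusted p 0.0377). None of the 3 overlapped between groups. Phm, nSyb, Rab3 and 7B2, which act in amidation, vesicle fusion, vesicle traffic and amon maturation, passed only with the replicate block (adjusted p 0.0204 to 0.0383 with it). The general exocytosis gene unc-13 and the carboxypeptidase svr stood at 529 ± 17.0 and 339 ± 34.9 CPM in control and at 552 ± 141 and 323 ± 26.7 CPM in SvbACT, and neither passed the test. The number of lower genes in the group was 10 without control library 1 but 1 without control library 2 or SvbACT library 3, 2 without SvbACT library 2, 3 without control library 3 and 4 without SvbACT library 1.

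Among called genes outside the lists, several of the same kind were named after their values were seen. They were stj, an accessory subunit of calcium channels (-2.56), Rgk3, a small GTPase of the RGK family (-2.78), unc-13-4A, a relative of the exocytosis factor Unc-13 (-2.13), cpx, which clamps vesicle fusion (-1.83), and Nrx-1, a synaptic adhesion protein (-1.89). Their adjusted p-values ran from 0.0286 to 0.0449. The extracellular peptidase genes Nep1 (-1.97, adjusted p 0.0161) and Nep3 (-1.42, adjusted p 0.00496), which degrade peptide signals, also fell. Nep3 kept its call without any 1 library, whereas stj, Rgk3, unc-13-4A and Nrx-1 lost theirs in every such fit but the one without control library 1, and cpx and Nep1 in those without control library 2 or 3 or SvbACT library 2 or 3. Ptth, a developmental hormone known from larval brain neurons, read 9.05, 8.79 and 8.06 CPM in control and 0.591, 1.25 and 0.638 CPM in SvbACT (-3.32, SE 0.62, adjusted p 0.0302), and lost its call when any 1 library was left out.

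Among transcription factors of the enteroendocrine lineage 0 of 6 tested members were called by edgeR, and the median was -0.18. The marker gene pros measured 51.3, 125 and 78.7 CPM in control and 39.7, 54.0 and 35.9 CPM in SvbACT, which overlapped (log2 fold change -0.97, SE 0.27, adjusted p 0.107). The proneural gene sc, which promotes endocrine fate, was at 4.90, 1.34 and 3.12 CPM against 15.7, 6.68 and 12.8 CPM (1.89, SE 0.58, adjusted p 0.142). With the replicate block both passed, pros lower (adjusted p 0.032) and sc higher (adjusted p 0.0439). Without control library 1, pros passed as lower with no block too.

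Markers of other cells moved beside the hormones. In the neuronal list 2 of 5 genes fell, beside 0.856% of all genes. They were brp and Syt1, which are also in the release machinery, and with the replicate block nSyb fell too. All 5 had a log2 fold change below 0, with a median of -1.94. In 4 of them every SvbACT library lay below every control library, beside 10.6% of all genes. The defining gene of the list, elav, was at 147, 137 and 132 CPM in control and 161, 105 and 95.5 CPM in SvbACT and was not called (adjusted p 0.708). Of 18 visceral muscle genes 0 passed the test and 15 had a log2 fold change below 0, with a median of -2.09. Mhc read 46.2, 263 and 269 CPM in control and 10.6, 34.9 and 51.7 CPM in SvbACT, which overlapped only through control library 1 (adjusted p 0.326). With the replicate block, 3 of the 18, Mhc, the troponin gene up and the titin-like gene sls, were called lower (adjusted p 0.0192 to 0.0213), beside 2.16% of all genes. The summed level of the muscle list was 11870 to 13282 CPM in control and 11236 to 15120 CPM in SvbACT, most of it from Msp300, a nuclear anchoring protein also made outside muscle (9837 ± 522 and 11066 ± 1987 CPM). The part of muscle or neuronal RNA in the hormone and release genes was not tested.

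**Figure D2:**
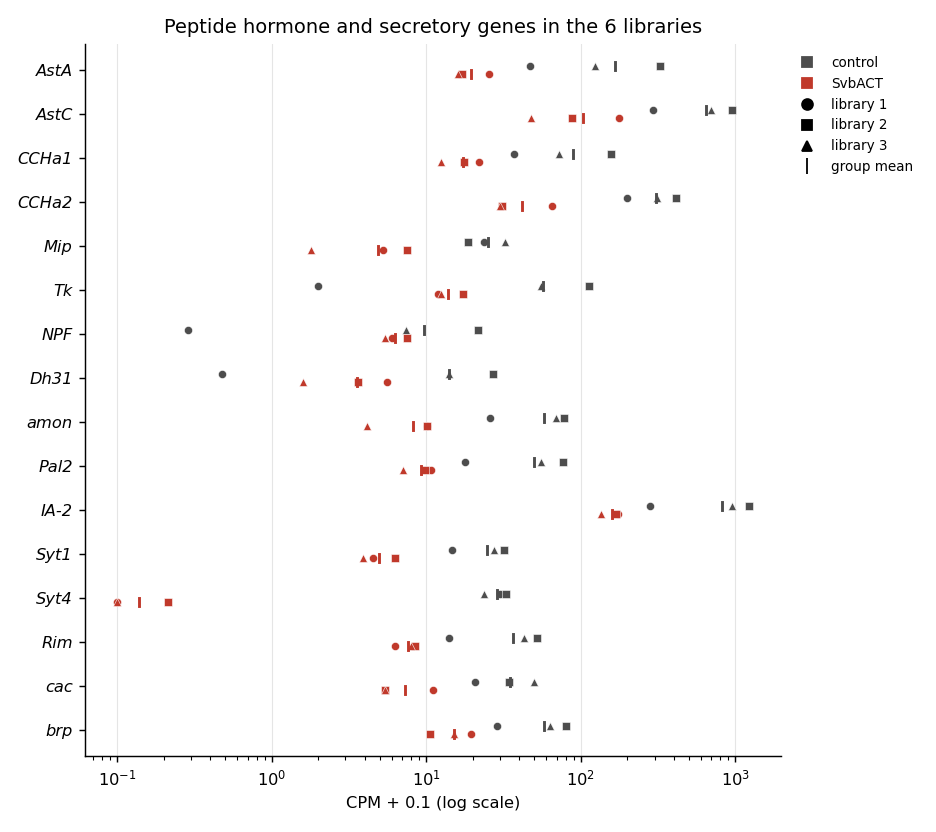
CPM + 0.1 on a log axis for peptide hormone genes and genes of peptide processing and release in the 3 control (grey) and 3 SvbACT (red) libraries, with marker shape giving the library number and a bar giving the group mean. Control library 1 lies lowest of the control libraries for most hormones and below every SvbACT library for Tk, NPF and Dh31, while Syt4 falls from 23.4 to 32.7 CPM to at most 0.113 CPM.

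Receptors for transmitters and peptides changed in both directions. Of 23 tested, 2 rose and 2 fell, beside 0.687% and 0.856% of all genes, and the median was -0.997. AstA-R1, a receptor for allatostatin A, read 24.9, 14.9 and 23.6 CPM in control and 133, 124 and 154 CPM in SvbACT, a log2 change of 2.70 (SE 0.31, adjusted p 0.00103) that kept its call without any 1 library. The ligand gene AstA thus fell and this receptor gene rose, while the other receptor gene, AstA-R2, was at 1.51, 17.4 and 8.06 CPM in control and 0.443, 0.906 and 1.28 CPM in SvbACT (adjusted p 0.078, and 0.023 with the replicate block). The nicotinic acetylcholine receptor subunit gene nAChRalpha6 read 2.07, 0.382 and 0.520 CPM against 9.31, 15.0 and 17.4 CPM (3.74, SE 0.72, adjusted p 0.0274). The muscarinic receptor gene mAChR-C held 13, 22 and 12 counts in control and 0, 1 and 0 in SvbACT, a ratio of 66.3 (95% counting interval 11.3 to 2674, adjusted p 0.0302). The serotonin receptor gene 5-HT2B read 5.47, 18.9 and 15.6 CPM against 1.63, 1.59 and 1.49 CPM (-3.07, SE 0.55, adjusted p 0.02). Of the 4 called receptors, nAChRalpha6, mAChR-C and 5-HT2B lost their calls without control library 2 or 3 or SvbACT library 2 or 3. The call of mAChR-C was also lost without SvbACT library 1. Named after their values were seen, the adenosine receptor AdoR (87.6 ± 8.64 CPM in control and 16.3 ± 9.39 in SvbACT, adjusted p 0.0213) and the tyramine receptor TyrRII (11.1 ± 4.99 and 2.10 ± 0.877 CPM, adjusted p 0.0466) fell as well. AdoR lost its call without control library 2 or 3 or SvbACT library 1 or 2, and TyrRII in every fit without 1 library but the one without control library 1. Exons of AdoR overlap an antisense RNA over a long stretch, so part of its counts is of uncertain origin, as is the case for DIP-alpha, Pal2, Nep1, Ptth and Kul, which overlap neighbouring genes.

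Cell-surface recognition genes included a receptor and its ligands with opposite signs. DIP-alpha, an immunoglobulin-domain protein that binds Dpr6 and Dpr10, measured 38.3, 40.9 and 44.4 CPM in control and 206, 141 and 137 CPM in SvbACT (log2 change 1.97, SE 0.24, adjusted p 0.00123). The gene dpr6 read 16.0, 14.3 and 10.4 CPM against 3.69, 2.38 and 1.91 CPM (-2.34, SE 0.48, adjusted p 0.0348), and dpr10, named after its values were seen, read 36.0, 30.6 and 35.6 CPM against 11.2, 5.66 and 13.4 CPM (-1.77, SE 0.28, adjusted p 0.0115). The groups did not overlap in any of the 3, and DIP-alpha and dpr10 kept their calls without any 1 library, whereas dpr6 lost it without SvbACT library 2 or 3 or any 1 control library. DIP-alpha lies 2887 bases from AstA-R1 on the X chromosome, and dpr6, dpr10 and ect (-2.36, adjusted p 0.02) follow one another on chromosome arm 3L, all lower. The 19 tested members of this list gave 2 higher and 2 lower genes, beside 0.687% and 0.856% of all genes, with a median of -0.18. The others were dpr1, another ligand of this family (6.84 ± 1.81 CPM in control and 0.958 ± 0.349 in SvbACT, adjusted p 0.0271), and IRSp53, an adaptor that couples curved membrane to actin and is not an immunoglobulin protein. IRSp53 read 2.64, 2.68 and 3.90 CPM in control and 24.7, 13.4 and 24.9 CPM in SvbACT (2.77, SE 0.44, adjusted p 0.0107), and lost its call only without control library 2. The guidance genes Sema2b (1.08, adjusted p 0.0334) and Sema1a (-0.97, adjusted p 0.0449), named after their values were seen, moved in opposite directions. Of the fits without 1 library, Sema2b, Sema1a and dpr1 were called only in the one without SvbACT library 1. The call of ect was lost without control library 2 or 3 or SvbACT library 2 or 3.

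A few cell division genes rose in SvbACT against control, a shift not particular to this genotype. The median of the list was 0.01 in SvbACT minus SvbREP and -0.48 in SvbACT minus the libraries labelled svb RNAi. Of 26 genes of division and replication 4 rose, beside 0.687% of all genes, 0 fell and 22 did not pass, and the median against control was 0.80. In 13 of the 26 all SvbACT libraries lay above all control libraries, beside 9.23% of all genes. The gene stg, which encodes the Cdc25 phosphatase that starts mitosis, read 4.52, 5.92 and 5.46 CPM in control and 23.8, 18.9 and 20.6 CPM in SvbACT. Its log2 fold change was 1.99 (SE 0.27, adjusted p 0.00301), and it kept its call without any 1 library. CycA, a mitotic cyclin, read 38.8, 37.5 and 44.7 CPM against 75.2, 89.7 and 71.0 CPM (0.97, SE 0.21, adjusted p 0.0377).

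BubR1, a spindle checkpoint kinase, read 27.1, 25.04 and 29.9 CPM in control against 45.7, 48.5 and 48.9 CPM in SvbACT (0.80, SE 0.18, adjusted p 0.0419). PCNA, the sliding clamp of DNA replication, read 22.0, 26.9 and 22.9 CPM against 35.5, 56.0 and 39.1 CPM (0.86, SE 0.19, adjusted p 0.0445). CycA, BubR1 and PCNA thus changed by less than 2-fold with little spread in the controls, and CycA and BubR1 lost their calls when any 1 library was left out, PCNA in all such fits but the one without SvbACT library 1. With the replicate block CycB, polo and Mcm6, a cyclin, a mitotic kinase and a helicase subunit, passed too (adjusted p 0.023 to 0.0496 for these 3). That made 7 higher genes in all, beside 1.7% of all genes with the block. The abundant members E2f1, a replication transcription factor, and fzr, an activator of cyclin breakdown, were not called (293 ± 3.96 and 183 ± 16.1 CPM in control, 269 ± 11.6 and 165 ± 16.3 CPM in SvbACT).

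Outside that list, 9 called genes of mitosis were named after their values were seen, all of them higher. They were the spindle genes asp (1.64, adjusted p 0.0115) and mud (1.03, adjusted p 0.0449), the cytokinesis genes pav (1.497, adjusted p 0.0131) and feo (1.54, adjusted p 0.02), and borr, a subunit of the chromosomal passenger complex (1.51, adjusted p 0.0495). The kinetochore genes rod (1.03), cmet (1.14) and Kmn1 (2.27) and the separase partner thr (1.39) had adjusted p-values from 0.0401 to 0.0428. Levels were low throughout: asp, the largest rise among those with more than 10 CPM in control, went from 13.4, 14.1 and 22.3 CPM to 42.7, 57.2 and 54.2 CPM. Each of the 9 lost its call without control library 2 and without SvbACT library 2. The count of 4 division genes in the list was 1 without control library 1 or 2 or SvbACT library 2 or 3, and 3 without control library 3 or SvbACT library 1, of which 1 and 2 were among the 4.

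**Figure D3:**
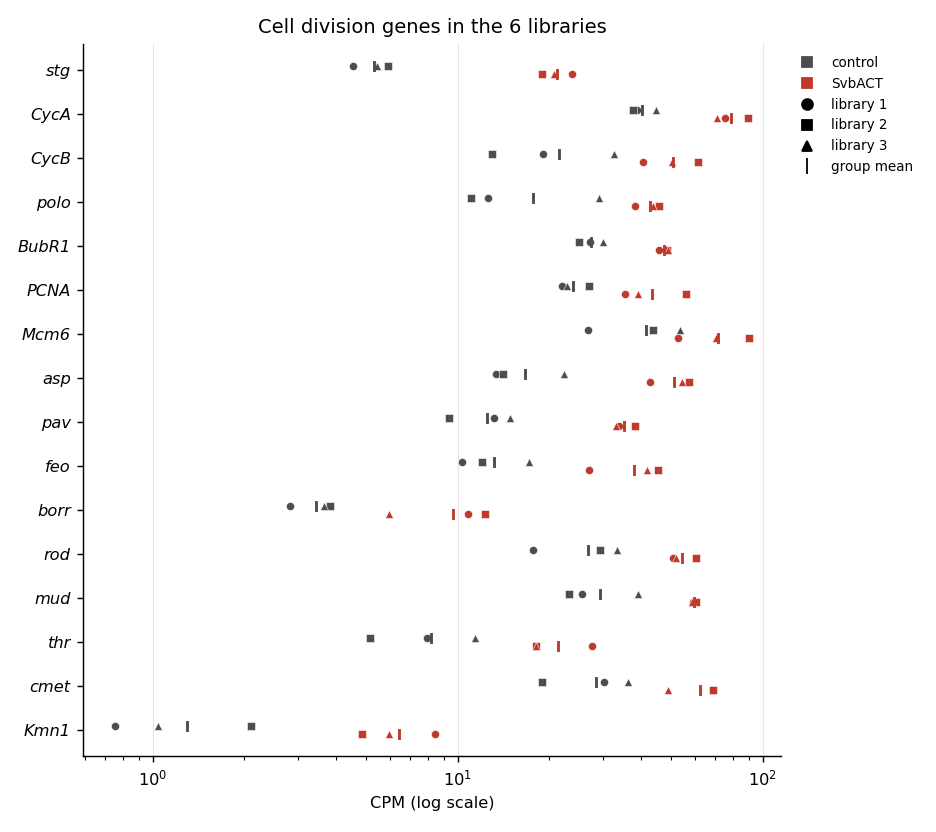
CPM on a log axis for cell division genes in the 3 control (grey) and 3 SvbACT (red) libraries, with marker shape giving the library number and a bar giving the group mean. In stg the control libraries lie at 4.52 to 5.92 CPM and the SvbACT libraries at 18.9 to 23.8 CPM, and in Mcm6 the highest control library, at 53.5 CPM, lies just above the lowest SvbACT library, at 52.9 CPM.

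Markers of the stem cell lineage showed a rise in 2 of 16 tested genes, beside 0.687% of all genes, and a fall in 0, with a median of 0.04. Dl, which encodes the Notch ligand Delta of stem cells, read 161, 166 and 223 CPM in control and 596, 350 and 381 CPM in SvbACT (log2 change 1.27, SE 0.23, adjusted p 0.02). SvbACT library 1 was the highest, and the groups were separate, but the call was lost without control library 1 or 2. The other was stg, described above. The Notch receptor gene itself was not called, nor were its transcription factor gene Su(H) (16.9 ± 2.59 and 16.0 ± 2.27 CPM) and its target E(spl)mbeta-HLH (498 ± 76.0 and 481 ± 39.0 CPM). Kul, a metalloprotease of the Kuzbanian family that can cut Delta, was named after its values were seen. It read 74.1, 90.0 and 60.0 CPM in control and 22.9, 12.7 and 18.5 CPM in SvbACT (-2.06, SE 0.26, adjusted p 0.00165), and kept its call without any 1 library. Meltrin, another metalloprotease gene, stood at 1057 ± 26.2 CPM in control and 512 ± 84.6 CPM in SvbACT (-1.05, SE 0.14, adjusted p 0.00301). Piezo, a mechanosensitive channel known from endocrine precursors of the fly midgut, rose from 31.4 ± 12.6 to 71.9 ± 14.7 CPM (1.20, SE 0.27, adjusted p 0.045). Both were named after their values were seen, and the Piezo call was lost in every fit without 1 library except the one without control library 3. Whether stem cells or endocrine precursors entered the sort in different numbers was not tested.

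Some of the largest rises were in genes with few or 0 counts in control. The gene mfr, whose ferlin protein is needed in sperm for fertilisation, held 0 counts in each control library and 352, 494 and 181 in SvbACT (52.0, 56.0 and 38.5 CPM), at least 76.3-fold higher than a floor of 3 counts per control library (adjusted p 0.00103). The gene blanks, a double-stranded RNA binding protein of the testis, held 0, 1 and 2 counts in control and 75, 230 and 91 in SvbACT, a ratio of 93.6 (95% counting interval 31.8 to 456, adjusted p 0.000657). Both kept their calls without any 1 library. The gene klhl10, a ubiquitin ligase adaptor of spermatids, held 1, 0 and 0 counts against 22, 33 and 11 (ratio 46.8, counting interval 8.11 to 1875, adjusted p 0.0308), and EbpII, an ejaculatory bulb protein, held 1, 1 and 1 against 30, 35 and 20 (ratio 20.1, counting interval 6.64 to 99.3, adjusted p 0.0302). Both lost their calls when any 1 library was left out. The uncharacterised gene CG32437 held 0 counts in control and 38, 30 and 30 in SvbACT, at least 8.02-fold higher (adjusted p 0.0449), and Ance-3, related to angiotensin-converting enzyme, held 1, 0 and 0 against 15, 19 and 22 (ratio 39.7, counting interval 6.84 to 1595, adjusted p 0.0377). These calls too were lost in each fit without 1 library. EbpII lies between lov, a BTB-domain protein (2.73, adjusted p 0.014), and CG9380 (1.72, adjusted p 0.0488) on chromosome arm 2R, and all 3 were higher. The genes lov and CG9380 were named after their values were seen, and lov lost its call without control library 3 or SvbACT library 2, CG9380 in every fit but the one without control library 1.

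The small RNA machinery gave 2 higher genes of 22 tested, beside 0.687% of all genes, with a median of 0.11. They act in the piRNA pathway, which silences transposons and is best known from the gonad. The gene piwi measured 35.8, 14.3 and 26.5 CPM in control and 72.8, 96.0 and 66.6 CPM in SvbACT (log2 change 1.62, SE 0.30, adjusted p 0.0213), and shu, a cofactor that loads Piwi proteins, measured 2.07, 1.53 and 3.90 CPM against 8.13, 11.6 and 11.3 CPM (2.07, SE 0.38, adjusted p 0.0213). Both separated the groups. Both were uncalled without control library 2, SvbACT library 2 or SvbACT library 3, piwi also without control library 3 and shu also without control library 1. The abundant Argonaute genes AGO1 (958 ± 135 and 879 ± 228 CPM) and AGO2 (785 ± 77.2 and 732 ± 83.5 CPM) were not called. Exons of piwi overlap those of SCAR on the opposite strand, and those of mfr overlap Tsp66E, so the origin of some of their counts is uncertain.

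The largest falls were in genes that were near silent in SvbACT. CG6912 held 76.7, 82.9 and 67.6 CPM in the control libraries and 0 counts in each SvbACT library, at least 160-fold lower (adjusted p 4.3e-06). Its neighbours asRNA:CR45600 (59.0, 74.7 and 69.6 CPM against 0.443, 0 and 1.91 CPM, adjusted p 0.000657) and CG3984 (72, 84 and 48 counts against 0, 2 and 0, ratio 144, counting interval 39.3 to 1196, adjusted p 0.00084) share exon bases with it or with each other. Since asRNA:CR45600 overlaps both, the 3 signals are not independent, and the strand setting of the counting is not given in the sources used here. All 3 kept their calls without any 1 library. CG13309 held 7, 26 and 34 counts in control and 0 in SvbACT, at least 10.6-fold lower (adjusted p 0.0308). CG33258 read 18.3, 58.1 and 24.2 CPM against 1.48, 1.36 and 1.06 CPM (-4.65, SE 0.83, adjusted p 0.02), and CG44422 read 13.004, 52.4 and 40.8 CPM against 2.66, 1.93 and 2.98 CPM (-3.82, SE 0.80, adjusted p 0.0366). None of CG13309, CG33258 and CG44422 was called without control library 2, SvbACT library 2 or SvbACT library 3, and CG13309 and CG44422 also lost their calls without control library 3 or SvbACT library 1. CG7120, named after its values were seen, read 36.2, 25.6 and 32.5 CPM against 1.63, 1.25 and 4.89 CPM (-3.66, SE 0.47, adjusted p 0.00186) and was called in every fit without 1 library. Abd-B, the posterior homeotic gene, was at 3.58, 9.94 and 5.72 CPM in control and 0.296, 0.680 and 0.213 CPM in SvbACT (-3.86, SE 0.81, adjusted p 0.0366), and was called only when control library 1 was the one left out.

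**Figure D4:**
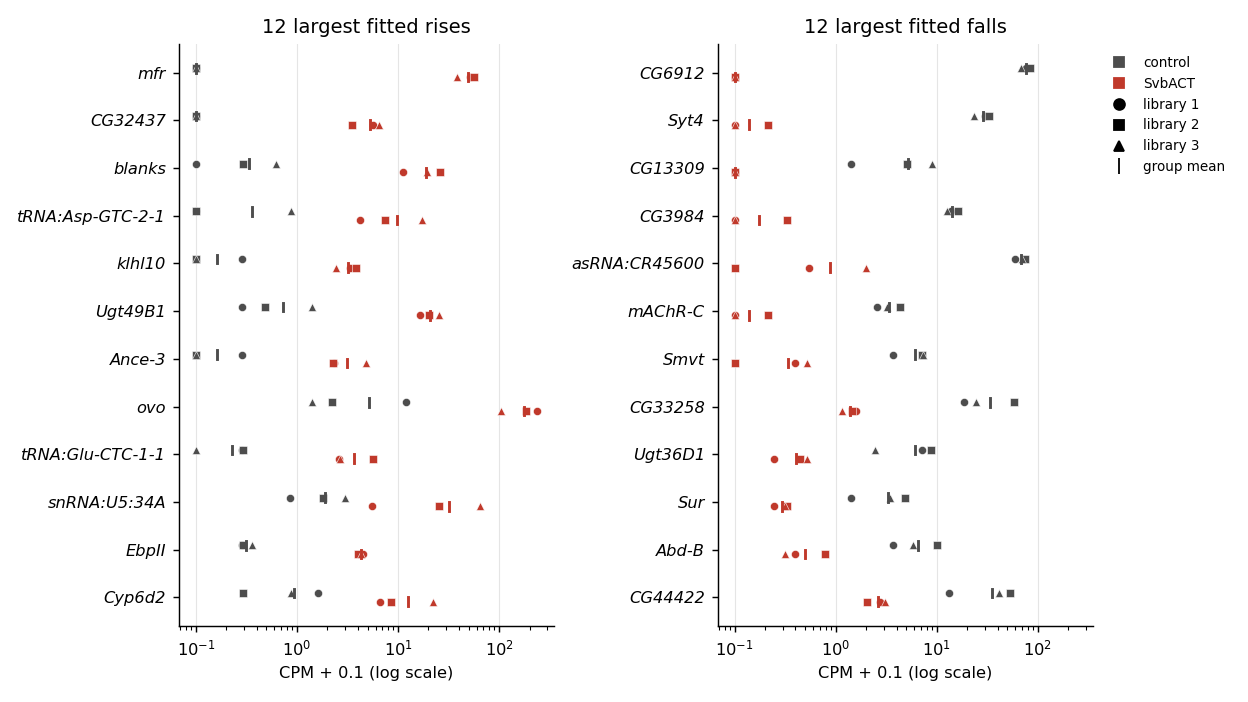
CPM + 0.1 on a log axis for the 12 genes with the largest fitted rise (left) and the 12 with the largest fitted fall (right), with the 3 control libraries in grey, the 3 SvbACT libraries in red, marker shape giving the library number and a bar giving the group mean. Points at 0.1 are libraries with 0 counts, as in all 3 control libraries for mfr and all 3 SvbACT libraries for CG6912, and no gene overlaps between groups.

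Transport and detoxification genes were called singly rather than by group. Ncc69, a cotransporter of sodium, potassium and chloride, read 186, 172 and 200 CPM in control and 33.98, 66.4 and 50.4 CPM in SvbACT (log2 change -1.88, SE 0.21, adjusted p 0.00084), and kept its call without any 1 library. Smvt, a vitamin transporter gene, held 19, 37 and 28 counts against 2, 0 and 2 (-4.69, SE 1.01, adjusted p 0.0402), and Sur, a subunit that regulates potassium channels, held 7, 25 and 13 against 1, 2 and 1 (-3.86, SE 0.81, adjusted p 0.0366). Both were called only in the fit without control library 1. MFS9, a transporter of the major facilitator superfamily named after its values were seen, read 11.0 ± 4.87 CPM in control and 1.18 ± 0.267 CPM in SvbACT (-3.21, SE 0.60, adjusted p 0.0239). Of the fits without 1 library, MFS9 too was called only in the one without control library 1. Of 20 UDP-glycosyltransferases, enzymes that attach sugars to foreign compounds, 2 rose and 1 fell, beside 0.687% and 0.856% of all genes. Ugt49B1 went from 0.188, 0.382 and 1.30 CPM to 16.4, 19.9 and 25.1 CPM (5.10, SE 0.63, adjusted p 0.00162), Ugt302K1 from 12.5 ± 2.90 to 29.3 ± 7.84 CPM (1.22, adjusted p 0.0302), and Ugt36D1 from 5.97 ± 3.25 to 0.304 ± 0.142 CPM (-4.24, adjusted p 0.0376). Their family median was -0.32. Ugt49B1 kept its call without any 1 library, Ugt36D1 in none of these fits, and Ugt302K1 lost it without control library 2 or 3 or SvbACT library 2 or 3. Of 52 cytochrome P450 genes 1 rose, beside 0.687% of all genes, 0 fell and the median was -0.41. All SvbACT libraries lay below all control libraries in 14 of the 52 and above them in 3, beside 10.6% and 9.23% of all genes. The called gene was Cyp6d2, at 1.51, 0.191 and 0.780 CPM in control and 6.50, 8.49 and 22.3 CPM in SvbACT (3.86, SE 0.77, adjusted p 0.0302). Cyp6d2 lost its call without control library 2 or 3 or SvbACT library 2 or 3, and with the replicate block Cyp6a17 passed as higher and Cyp12a4 as lower. Of 26 glutathione S-transferase genes 0 were called, and all SvbACT libraries lay above all control libraries in 11, beside 9.23% of all genes. Their median was 0.34, and 0.21 without control library 3. With the replicate block 2 passed as higher, GstS1 and GstE3, beside 1.7% of all genes.

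Groups that define the absorptive function of the enterocyte gave no calls without the replicate block. Among 11 enterocyte identity and brush border genes the median was -0.23, and the abundant actin and spectrin genes kst (3740 ± 773 CPM in control, 5513 ± 949 in SvbACT), alpha-Spec (2112 ± 299 and 2181 ± 176) and Fim (2330 ± 217 and 1860 ± 83.2) did not pass the test, although kst passed with the replicate block (adjusted p 0.0456). The 19 septate junction and polarity genes had a median of -0.05 and the 11 regional transcription factors of -0.37. Of 29 digestive proteases 22 had a log2 fold change below 0 and the median was -0.64. That median was -0.02 without control library 1 and -1.08 without SvbACT library 1, and levels varied several-fold within a group, as Jon25Biii read 822, 264 and 828 CPM in control and 624, 337 and 111 CPM in SvbACT. With the replicate block 4 of the 29, Jon44E, Jon65Ai, yip7 and CG18180, were called lower, beside 2.16% of all genes. Such proteases belong to families of similar genes, between which reads may be shared. Carbohydrate digestion (19 genes, median -0.08) and lipid metabolism (25 genes, median -0.18) showed no calls, and among the latter the lipid droplet gene Lsd-2 passed only with the replicate block (1391 ± 275 and 1033 ± 199 CPM, adjusted p 0.0428).

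Few genes downstream of Svb in the embryonic epidermis could be tested. Of 21 such genes 13 were analysed, 6 of these passed the filter on low counts and 0 were called, with a median of -0.26. Among them trn stood at 119 ± 11.2 CPM in control and 125 ± 36.2 in SvbACT, WASp at 53.3 ± 25.3 and 47.6 ± 9.53, and the actin-bundling gene sn at 13.4, 16.1 and 20.0 CPM against 9.31, 2.60 and 6.59 CPM, below control in all libraries but uncalled (adjusted p 0.232). Signalling and stress groups gave 0 calls too, with medians of -0.07 in apoptosis and JNK (16 genes), 0.20 in JAK/STAT (8), 0.02 in Hippo and EGF receptor (19), -0.14 in gut immunity (13), -0.02 in heat shock (20) and 0.05 in endoplasmic reticulum stress (13). Stat92E stood at 1381 ± 30.9 and 1094 ± 248 CPM, Egfr at 1288 ± 106 and 1389 ± 371 CPM and Diap1 at 370 ± 24.0 and 347 ± 17.7 CPM. With the replicate block the immunity genes Irc, an immune-regulated catalase (higher), and PGRP-SC1a, a peptidoglycan-degrading enzyme (lower), the chaperone gene Hsp70Ba (lower) and the amylase gene Amy-d (lower) passed. Of 40 listed immunity genes only 14 were analysed and 13 tested, and most antimicrobial peptide genes were not among them. Of 12 listed JAK/STAT genes 8 were analysed. At this depth and replication a p above the threshold does not show that the tested genes were equal.

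Between the activator and the repressor form, 6 genes differed (0.0723% of those tested), and 32 did with the replicate block. At an unadjusted p under 0.05 there were 425. In this contrast both groups carry a Svb transgene, and they share the driver and the induction. The gene mfr was at 0.533, 0 and 0 CPM in SvbREP against 52.0, 56.0 and 38.5 CPM in SvbACT (adjusted p 0.0132). The gene rdog read 47.0, 41.0 and 67.9 CPM in SvbACT, 15.3, 10.3 and 12.5 CPM in SvbREP and 23.2, 26.2 and 21.6 CPM in control. It was thus highest in SvbACT and lowest in SvbREP without overlap, with a log2 difference of 2.02 between the forms (SE 0.27, adjusted p 0.0132). The gene rst, a cell adhesion protein, had the same order, at 33.7, 36.5 and 31.9 CPM in SvbACT and 11.1, 7.76 and 11.5 CPM in SvbREP (1.75, SE 0.25, adjusted p 0.0175), with control at 13.9, 18.7 and 25.7 CPM, from which SvbACT did not pass the test (adjusted p 0.13).

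CG42524 had the opposite order, at 12.4, 8.61 and 5.96 CPM in SvbACT, 221, 60.4 and 106 CPM in SvbREP and 67.3, 22.6 and 19.2 CPM in control (log2 difference between the forms -3.83, SE 0.56, adjusted p 0.0175). For piwi SvbREP read 27.7, 17.0 and 18.7 CPM, near the control range and below SvbACT (1.88, SE 0.30, adjusted p 0.0365). For Ncc69 SvbREP read 133, 145 and 165 CPM, between the control and the SvbACT libraries (-1.55, SE 0.21, adjusted p 0.0132). The hormone genes AstA, AstC, CCHa1 and CCHa2 had differences between the forms of 0.23, 0.65, 1.43 and 0.41, and none passed (adjusted p 0.745 to 0.999). For the division genes stg and CycA the differences were 0.75 and 0.15 (adjusted p 0.72 and 0.999). Medians of the difference between the forms were 0.22 for peptide hormones, 0.03 for peptide processing and release and 0.01 for cell division. The shifts of these lists from control were thus not particular to SvbACT. The number of calls changed with the library left out. It was 0 without SvbREP library 3, where 414 genes had an unadjusted p under 0.05, 1 without SvbREP library 2 and 7 without SvbREP library 1. Without SvbACT library 1, 2 and 3 it was 3, 2 and 4. The part of the smaller number of libraries in these changes was not tested.

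**Figure D5:**
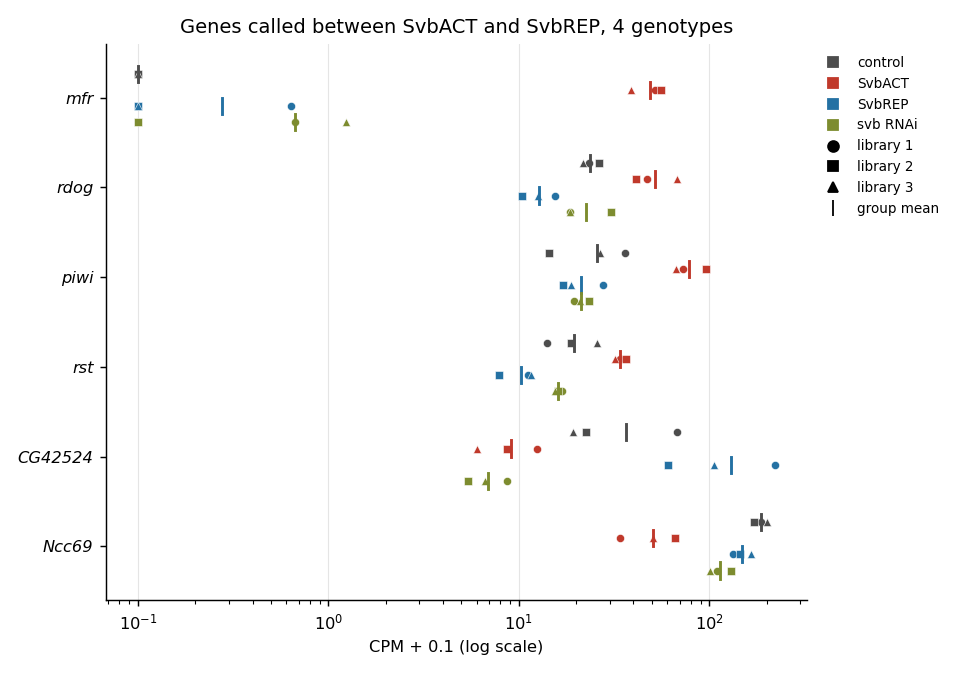
CPM + 0.1 on a log axis in the 3 libraries of each of 4 genotypes for the 6 genes called in the direct contrast of the activator with the repressor form, with colour giving the genotype, marker shape the library number and a bar the group mean. In mfr the SvbACT libraries lie at 38.5 to 56.0 CPM and all other libraries at or below 1.14 CPM, and in Ncc69 the SvbACT libraries are the lowest of the 12.

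The libraries labelled svb RNAi held ovo at 14.8, 7.38 and 5.98 CPM, not below control. Against them, 211 genes differed from SvbACT (2.54%), 173 of them higher in SvbACT, and 498 did with the replicate block. The split depended on scaling, as 82.0% of these calls were higher in SvbACT by TMM and 64.7% of 150 by library totals. Among the genes described above, blanks (adjusted p 0.000176), IRSp53 (3.70, adjusted p 0.00114), nAChRalpha6 (4.58, adjusted p 0.00746), lov (2.63, adjusted p 0.0087) and DIP-alpha (1.61, adjusted p 0.00293) were higher in SvbACT. CG6912 (adjusted p 8.04e-06), mAChR-C (adjusted p 0.0443) and Ncc69 (-1.17, adjusted p 0.0097) were lower in SvbACT. Of all these genes, higher or lower, only Ncc69 was also among the 6 called between SvbACT and SvbREP. For the others a difference from the repressor form was not shown. For stg (0.00), Dl (-0.11), AstA-R1 (-0.74) and dpr10 (-0.02) no difference from these libraries passed the test. List medians in SvbACT minus these libraries were -0.92 for peptide hormones, -0.84 for peptide processing and release and -0.48 for cell division.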

How the data were processed

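RNA was measured in 12 libraries of sorted enterocytes, 3 per genotype, as 100-nt single reads from Ovation SoLo libraries. The authors deposited whole-number counts per gene; per the submitters' processing notes the tools included FastQC 0.11.5, STAR 2.5.2b and HTSeq 0.6.0 with build dm6. The strand setting is not given in the sources used here. Their calls are a deposited score of -1, 0 or 1 per gene. Samples were grouped by genotype label. Library numbers come from the description labels, which equal the column names. For svb RNAi the titles number the same libraries differently, and the description numbers were used. Nothing in the labels separates biological from technical spread beyond different days and pooled flies, so p-values measure the spread between these libraries.

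The counts were fitted here in edgeR 4.0.16 (R 4.3.3) with TMM scaling, filterByExpr at a minimum count of 10 and the quasi-likelihood test over all 12 libraries. Two-sided p-values were adjusted by Benjamini-Hochberg over 8296 of 8802 genes, with a threshold of 0.05. The biological coefficient of variation was 0.296. Counting intervals (95%) and the floor of 3 counts cover counting error only. Symbols and positions for 8686 genes came from the reference annotation.

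Deviations of same-numbered libraries from their group means correlated at 0.322, 0.115 and 0.134 between control and SvbACT, 0.289, 0.211 and 0.171 for SvbREP and 0.336, 0.216 and 0.295 for the libraries labelled svb RNAi, and the labels say that replicates were made on different days. Control library 3 correlated slightly better with SvbACT library 2 (0.145) than either did with its own number. All same-number values were over 0.1, so the numbers were taken to pair the libraries, and the number was fitted as a replicate block beside the unblocked fit. Members, lists and tests were chosen with earlier results of these data known. Named genes were ovo, the 12 largest fitted rises and falls among called genes, called members of 28 lists and 12 families, abundant list members and the genes called against SvbREP. Others are said to be named after their values were seen. Alternatives were other scalings and filters, the block, DESeq2 1.42.0, fits on 6 libraries and leaving out each library, the last without the block.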

Additional observations from a re-analysis of the deposited data

How the results depend on the processing

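No named gene that was called changed direction under any alternative run. In fits without 1 library this could hardly happen, since no called gene overlapped between groups, so it is no measure of stability. Medians of lists near 0 did change sign, as carbohydrate digestion (-0.08) ran from -0.25 to 0.70 without 1 library. For SvbACT against control, 128 calls became 68 among genes with a mean of at least 10 CPM, 327 with DESeq2, 320 with the replicate block, 399 with the block in the 6 libraries alone, and 22 to 113 without 1 library. The 6 calls against SvbREP became 10 with that filter, 41 with DESeq2, 32 with the block and 0 to 7 without 1 library. The 211 against the libraries labelled svb RNAi became 443 with DESeq2, 498 with the block and 70 to 240 without 1 library. Leaving out all libraries numbered 1, an alternative chosen after seeing the data, gave 174, 17 and 131 calls. Higher genes made up 28.2% of the 174, 33.1% of 142 with the 6 libraries alone, and 44.5% of the 128. The filter tests fewer genes and leaving out a library uses fewer samples. For the other changes the cause was not tested. Of 93 called genes named in the text or its figures, 93 passed with the block and with DESeq2, 85 with library totals, 68 without the libraries numbered 1 and 18 to 59 without 1 library. Low counts limit genes near 1 CPM, where single libraries hold a few counts.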

Other observations

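Among components of protein synthesis and turnover 0 passed the edgeR test at an adjusted p under 0.05. The log2 fold change was above 0 in 77 of 77 cytosolic ribosomal protein genes (median 0.29), in 30 of 30 proteasome genes (median 0.29), in 59 of 69 mitochondrial ribosomal protein genes (median 0.28) and in 54 of 60 genes of the respiratory chain and ATP synthase (median 0.19). All SvbACT libraries lay above all control libraries in 43 of the 77 cytosolic ribosomal protein genes, 3 of the 30 proteasome genes, 6 of the 69 mitochondrial ribosomal protein genes and 4 of the 60 respiratory genes, beside 9.23% of all genes. Without SvbACT library 2 the medians were 0.12 for the proteasome, 0.05 for the respiratory genes and 0.18 for the mitochondrial ribosomal proteins. Without SvbACT library 1 the first 2 were 0.44 and 0.29, and without control library 1 they were 0.19 and 0.10. The cytosolic ribosomal median stayed between 0.25 and 0.34 without any 1 library. RpL13 measured 946 ± 60.3 CPM in control and 1299 ± 163 CPM in SvbACT (SD, n = 3) and was the ribosomal protein gene that passed with the replicate block (edgeR adjusted p 0.0417).

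Of 303 long noncoding and antisense RNAs 245 had a log2 fold change below 0, the median was -0.60 and asRNA:CR45600 was the 1 called, a smaller share than the 1.54% of all genes. Without SvbACT library 2 that median was -0.38. All SvbACT libraries lay below all control libraries in 78 of the 303 and above them in 8, beside 10.6% and 9.23% of all genes. The median was -0.07 in SvbACT minus SvbREP and -0.12 in SvbACT minus the libraries labelled svb RNAi, so the shift was not particular to SvbACT. Among 25 small nuclear and nucleolar RNAs 2 rose and 1 fell, beside 0.687% and 0.856% of all genes. Their median was 0.56, and 0.26 without SvbACT library 3. None of the 3 was called without control library 1 or 2 or SvbACT library 2 or 3. The minor spliceosome RNA snRNA:U12 read 34.3, 34.02 and 35.6 CPM in control and 56.3, 77.7 and 89.8 CPM in SvbACT (1.11, SE 0.23, edgeR adjusted p 0.0366), and snoRNA:Psi18S-301 read 76.1, 65.6 and 37.2 CPM against 20.7, 13.7 and 23.2 CPM (-1.64, SE 0.33, edgeR adjusted p 0.0302). The spliceosomal RNA snRNA:U5:34A spread from 5.47 to 65.3 CPM within SvbACT. It belongs to a family of near-identical copies, so its counts are of uncertain origin.

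Called genes were spread over the chromosomes, with 22 of 1451 tested genes on arm 2L, 28 of 1693 on 2R, 24 of 1562 on 3L, 33 of 1994 on 3R and 18 of 1385 on X. On chromosome 4 it was 0 of 70. Lower were 11 of the 22 on 2L, 13 of the 28 on 2R, 13 of the 24 on 3L, 24 of the 33 on 3R and 10 of the 18 on X, beside 71 of all 128. The allatostatin gene AstA, which fell, lies 17 bases from the spindle gene asp, which rose.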
